A study of Mus musculus with 4 samples.

Results

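The 8 genes described here encode plasma proteins that visceral endoderm secretes: alpha-fetoprotein (Afp), albumin (Alb), transthyretin (Ttr), retinol-binding protein 4 (Rbp4) and the apolipoproteins Apoa1, Apoa2, Apob and Apoe. They were chosen by symbol, and all 8 were measured among 19083 genes, through 39 of 45214 array features. Mouse embryonic stem (ES) cells in which a short hairpin RNA targets the constitutive exon 1 of Fmr1 (shFmr1) were set against ES cells with a random shRNA (shCT). The lentiviral vector and its GFP reporter were common to both, so the control cells carry them too, and the sorted cells were grown as non-clonal populations. Each of 4 two-colour arrays held 1 RNA of either kind, with shFmr1 in Cy5 on replicates 1 and 3 and in Cy3 on replicates 2 and 4. The sources used here do not give the ES line, its passage or any feeder cells. Nothing in them says that the numbered replicates were grown separately, so the p-values reflect the spread of these 4 arrays alone, and that spread may be technical.

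Visceral endoderm is the epithelium that surrounds the early mouse embryo outside the epiblast, and it serves as an embryonic source of plasma proteins before the liver forms. It makes carriers of lipid, retinol and thyroid hormone and takes up maternal proteins through a cubilin and megalin receptor complex. Afp and Ttr are common markers of this tissue in differentiating ES cultures, where a few cells can take this fate. In bulk RNA, fewer cells of a type and less RNA per cell cannot be told apart.

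Values are the deposited log ratios, read as log2 ratios of shFmr1 over shCT, with a positive value meaning a higher level in shFmr1 cells. The log base is not stated. The direction is the likely one, since the targeted gene, Fmr1, had a negative ratio in either dye orientation. Fmr1 read -0.86, -1.65, -1.34 and -1.61 on replicates 1 to 4, averaging -1.37 ± 0.36 (SD, n = 4), or 2.58-fold lower as read. Fmr1 did not pass the limma test over all genes (adjusted p = 0.156). With the dye term kept, it passed without replicate 1 and without replicate 2 (lowest limma adjusted p = 0.0327), but not without replicate 3 or 4. The table gives no channel intensities, so it cannot show whether any of the 8 genes was expressed above background, and a ratio near 0 can also belong to an undetected gene. The number of arrays limits the precision.

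None of the 8 genes passed the test. In a limma fit with the dye orientation as a second term, the adjusted p over all genes lay between 0.973 and 0.997 for the 8. No gene of the 19083 passed either (0%). At an unadjusted p under 0.05 there were 0 of the 8 genes, against 3.77% of all genes. Means were negative for 3 of the 8 and positive for 5, and 50.5% of all genes had a negative mean. The median of the 8 means was 0.05, beside -0.0013 over all genes. None of the 8 was negative on all 4 arrays (5.88% of all genes) and none was positive on all 4 (5.37%), so none kept 1 sign (11.3%).

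**Figure D1:**
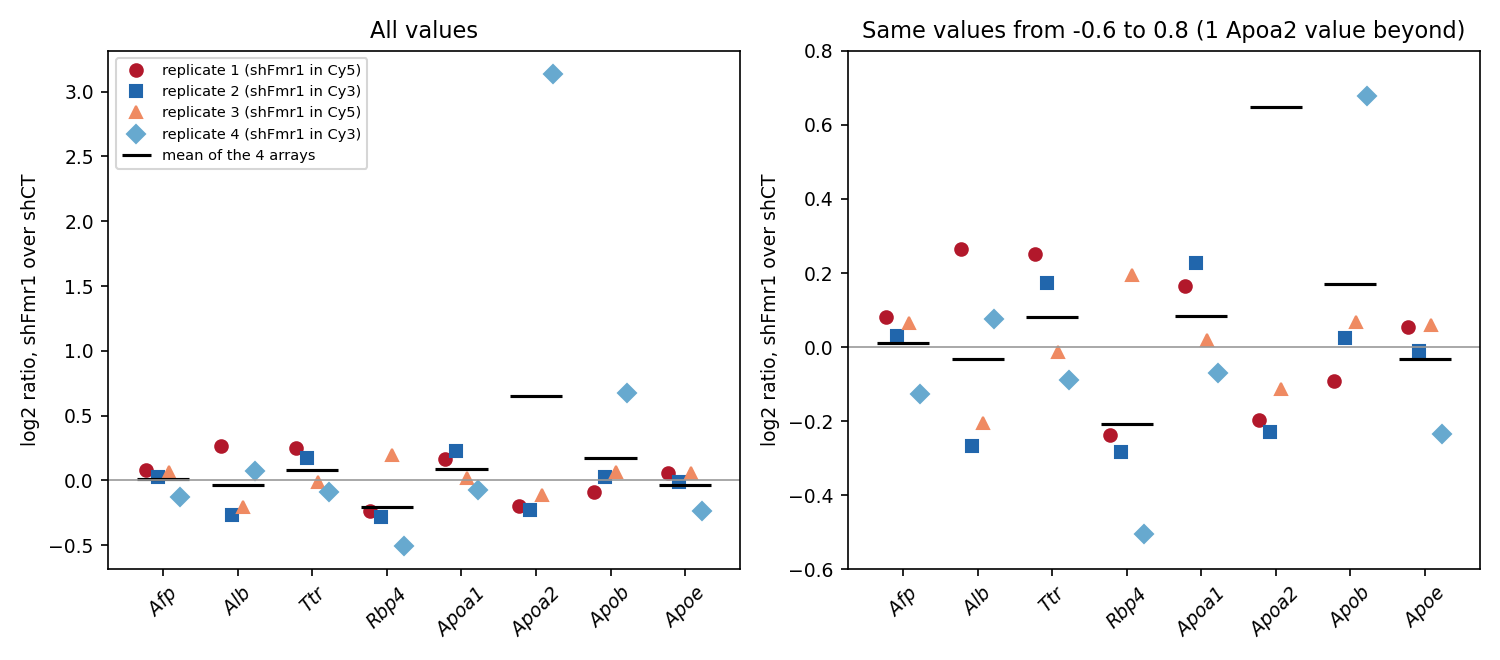
Log2 ratio of shFmr1 over shCT for each gene on each of the 4 arrays, with warm colours for shFmr1 in Cy5, cool colours for shFmr1 in Cy3 and a black bar for the mean. The right panel shows the same values from -0.6 to 0.8. Most points lie within 0.3 of 0, and Apoa2 at 3.13 and Apob at 0.68 on replicate 4 stand apart.

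Afp and Alb are paralogs that lie side by side on mouse chromosome 5. Afp is the main fetal and albumin the main adult carrier protein of plasma. In liver cells, both promoters are classic targets of the homeodomain factor HNF1. The 120 bases before each RefSeq start (GRCm38.p6, plus strand) are shown because this pair shares a locus and a regulator. Capitals mark GTTAAT, a half-site of the HNF1 motif, and the coordinates are chr5:90490594-90490713 for Afp and chr5:90460750-90460869 for Alb.
Afp: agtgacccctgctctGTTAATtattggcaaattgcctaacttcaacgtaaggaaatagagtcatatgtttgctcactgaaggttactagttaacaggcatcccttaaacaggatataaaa
Alb: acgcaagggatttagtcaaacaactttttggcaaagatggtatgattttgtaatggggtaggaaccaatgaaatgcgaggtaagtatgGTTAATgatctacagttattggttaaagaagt
The half-site begins 105 bases before the start of Afp and 32 before that of Alb. It was searched on both strands (GTTAAT or ATTAAC) in the 250 bases before each start, and 6.43% of 32851 RefSeq windows held it. Of the 8 genes 7 had a window, and the half-site stood in those of Afp, Alb and 1 of 3 of Apoe. Counted by window, as that share is, it stood in 3 of their 11 windows. A match is a string of letters, not a measured binding site.

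Afp read 0.08, 0.03, 0.06 and -0.13 on replicates 1 to 4, averaging 0.01 ± 0.10 (SD, n = 4). It was thus above 0 on 3 arrays and below on replicate 4, and its SD between arrays was at percentile 10.2 of all genes. That rank compares unlike averages, since Afp has 10 features and 10740 of the 19083 genes have 1. The single Afp features had SDs between arrays from 0.13 to 0.37. The 95% confidence interval ran from -0.20 to 0.22, which as read leaves room for between 1.15-fold lower and 1.17-fold higher. Of its 10 features, 5 had negative and 5 positive means, from -0.19 to 0.16.

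Alb read 0.26, -0.27, -0.20 and 0.08 on replicates 1 to 4, through 1 feature. Its sign followed neither the dye nor a common direction, and the mean was -0.03 ± 0.25 (SD, n = 4; 95% interval -0.32 to 0.26). Alb and Afp had the same sign only on replicate 1, and opposite signs on replicates 2, 3 and 4.

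Ttr carries thyroxine and, through its complex with Rbp4, retinol. Ttr read 0.25, 0.17, -0.01 and -0.09 on replicates 1 to 4, through 1 feature. The first pair of arrays was positive and the other pair at or below 0, so both dye orientations hold 1 of each. The mean was 0.08 ± 0.16 (SD, n = 4), with a 95% interval from -0.16 to 0.32.

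Rbp4, the plasma carrier of retinol, had the smallest p-value of the 8. It read -0.24, -0.28, 0.19 and -0.50 on replicates 1 to 4, through 1 feature. Negative on 3 arrays and positive on replicate 3, it averaged -0.21 ± 0.29 (SD, n = 4; 95% interval -0.47 to 0.06). Its limma p was 0.104 before adjustment and 0.973 after, and the exact two-sided sign-flip permutation test gave 0.25. The smallest p that 4 arrays allow in that test is 0.125. The partners Ttr and Rbp4 had the same sign only on replicate 4, and a difference between them was not tested.

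Apoa1 is the main protein of high-density lipoprotein. It read 0.16, 0.23, 0.02 and -0.07 on replicates 1 to 4, averaging 0.08 ± 0.14 (SD, n = 4; 95% interval -0.15 to 0.32). The order of the arrays was close to that of Ttr, and over the 4 ratios these genes were the nearest pair of the 28 pairs, with a Euclidean distance of 0.109. Afp and Apoe came next at 0.120. Of the 10 Apoa1 features 9 had a positive mean, but they spread widely on 1 array: on replicate 2 they ran from -0.22 to 1.29 with a median of 0.11. The sources used here do not say whether these features carry the same probe.

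Apoa2, the second protein of high-density lipoprotein, gave the widest spread. It read -0.20, -0.23, -0.11 and 3.13 on replicates 1 to 4, through its only feature. The first 3 arrays agree within 0.12 of each other, and replicate 4 alone is far above them. The mean of 0.65 ± 1.66 (SD, n = 4) therefore describes no array, and it did not pass (limma adjusted p = 0.973). Without replicate 4 the mean of the other 3 arrays was -0.18 ± 0.06 (SD, n = 3), and the limma fit with the dye term kept gave -0.19 (adjusted p = 1.00). Without replicate 2, dye term kept, replicate 4 stood alone in its orientation, and the fitted Apoa2 coefficient was 1.49. That coefficient weighs both orientations equally and is not the plain mean of the arrays left. The residual spread of Apoa2 in that fit came only from replicates 1 and 3, and limma moderated it with that of all genes.

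Apob is the structural protein of very-low-density and low-density lipoprotein. It read -0.09, 0.02, 0.07 and 0.68 on replicates 1 to 4, averaging 0.17 ± 0.35 (SD, n = 4; limma adjusted p = 0.973). Replicate 4 was again the high array. There, 1 of the 5 features read 3.26 while the other 4 ran from -0.04 to 0.10. Without that feature Apob read -0.11, -0.03, 0.08 and 0.03 on replicates 1 to 4, averaging -0.01 ± 0.08 (SD, n = 4). The feature with the high value is annotated to a cDNA record, as are 2 of the other 4, and those did not share it.

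Positive values of this size were rare and mostly belonged to 1 array. On replicate 4, 0.228% of all features (103) read above 3, against 9 on replicate 1, 42 on replicate 2 and 6 on replicate 3. Of the values beyond 2 in size, 368 were positive and 29 negative on replicate 4, and 161 and 20 on replicate 2, the other array with shFmr1 in Cy3. With shFmr1 in Cy5 the signs were mostly the other way, with 38 positive and 123 negative on replicate 1 and 14 and 225 on replicate 3. Only 17 features went beyond 2 on more than 1 array. The part of the array or the dye in the Apoa2 and Apob values was not tested.

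Apoe, a lipoprotein ligand of receptors of the low-density lipoprotein receptor family, is made by many cell types besides endoderm, macrophages among them. It read 0.05, -0.01, 0.06 and -0.24 on replicates 1 to 4, averaging -0.03 ± 0.14 (SD, n = 4; 95% interval -0.25 to 0.18). Replicate 4 was the low array. All 10 Apoe features were negative there, from -0.35 to -0.02, and 7 of 10 on replicate 2, the other array with shFmr1 in Cy3. With shFmr1 in Cy5, 2 of 10 were negative on each of replicates 1 and 3. The SD over the features was between 0.07 and 0.10 on each array, less than that of the Afp features (0.18 to 0.29) and of the Apoa1 features (0.17 to 0.42). The macrophage marker list, of which 14 genes were measured, had 7 negative and 7 positive means and a median of -0.0056.

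**Figure D2:**
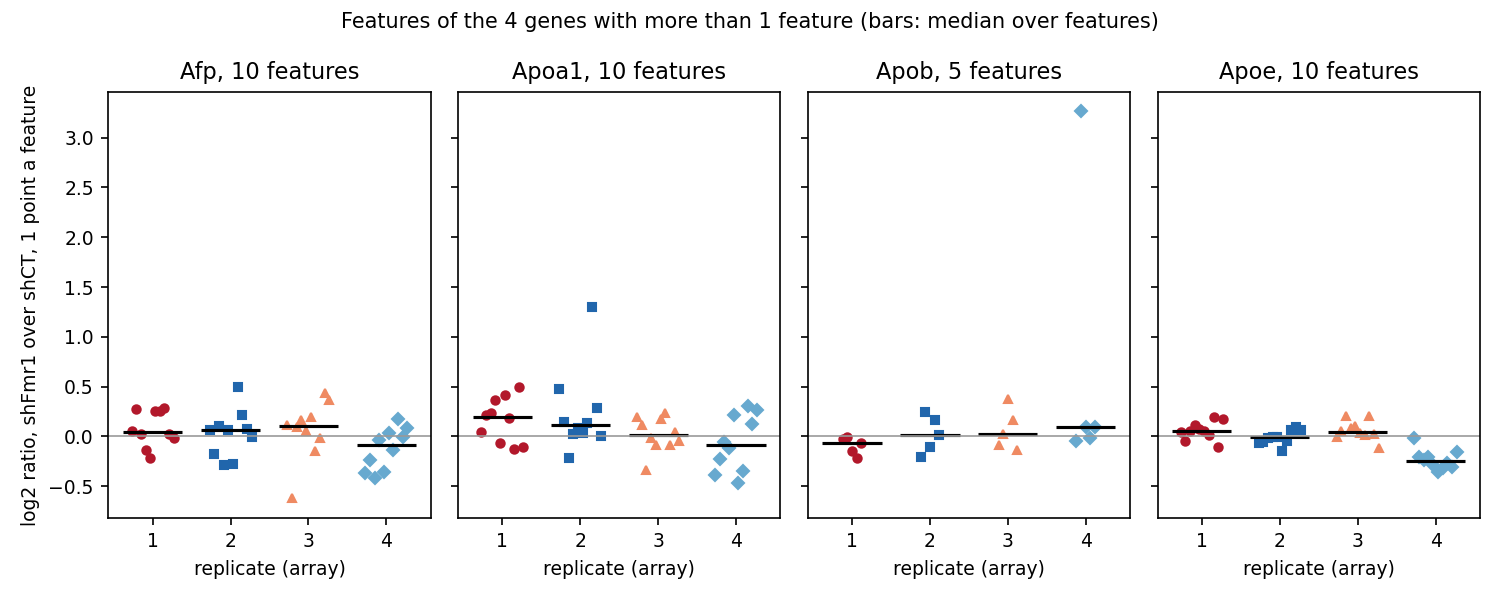
Log2 ratio of shFmr1 over shCT of each feature of Afp, Apoa1, Apob and Apoe by replicate, with a black bar for the median over features. The Apoe features are all below 0 on replicate 4, while 1 Apob feature at 3.26 lies alone there.

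The 95% confidence intervals describe the ratios as measured, whether or not a gene was above background. Apart from Apoa2, whose interval ran from -0.57 to 1.87, the lowest bound was -0.47 (Rbp4) and the highest 0.48 (Apob). The Fmr1 interval ran from -1.63 to -1.10. For all 8 genes the interval thus lay above that of Fmr1. The intervals use the log2 reading, and they would be wider in log2 units if the values were natural or decimal logs.

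**Figure D3:**
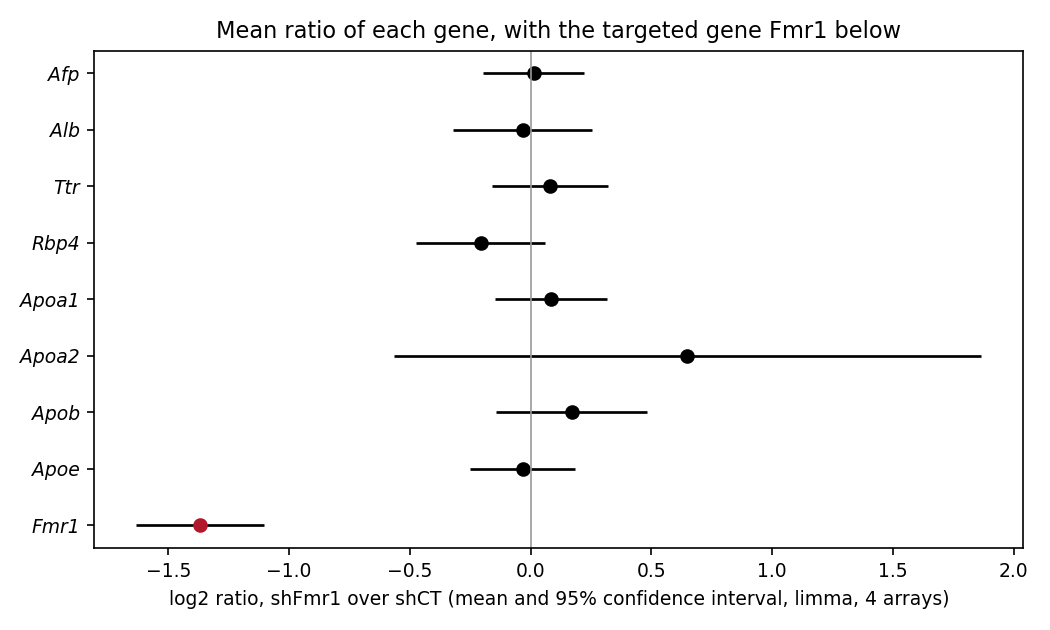
Mean log2 ratio of shFmr1 over shCT (points) with the 95% confidence interval of the limma fit over 4 arrays (lines), for the 8 genes and, in red, Fmr1. All 8 intervals include 0, and the Apoa2 interval is the widest.

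The dye orientation was fitted beside the hairpin. No member had a dye effect at an unadjusted p under 0.05, against 6.49% of all genes. The largest coefficient was that of Apoa2 at -0.80 (limma adjusted p = 0.750), which comes from replicate 4. On the arrays with shFmr1 in Cy5 the medians of the 8 genes were 0.07 and 0.04, and with shFmr1 in Cy3 they were 0.0061 and -0.08. On replicate 4, 5 of the 8 genes were negative, beside 52.5% of all genes.

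Since no gene of the 19083 passed the test, the lists of related genes outside the 8 could hold none that did. All 16 other apolipoproteins listed were measured, and 8 were negative and 8 positive, with a median of -0.00014 and none past the test. Clu, an extracellular chaperone also called apolipoprotein J, read -0.34, -0.0033, -0.72 and -1.02 (mean -0.52 ± 0.44, n = 4), and Apod, a lipocalin, 0.33, -0.40, 1.49 and -0.33 (mean 0.27 ± 0.88, n = 4). The sign of Apod followed the dye orientation, positive with shFmr1 in Cy5 and negative with shFmr1 in Cy3. Of the 43 other plasma protein genes measured, 17 were negative and 26 positive, with a median of 0.05. The one with the smallest p on the negative side was the hepcidin gene Hamp2 (limma adjusted p = 0.156). It read -2.42 and -2.18 with shFmr1 in Cy5, and -0.02 and -0.17 with shFmr1 in Cy3 (limma adjusted p = 0.416 for the dye term). On the positive side it was the protease inhibitor gene Serpina1b (0.21 ± 0.30, n = 4, limma adjusted p = 0.973).

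Neighbouring genes of the albumin, Apoa1 and Apoe clusters were also looked at. Of 7 measured, 4 were negative and 3 positive, with a median of -0.0016. Apoa4, in the cluster of Apoa1, averaged -0.21 ± 0.32 and Apoc2, in the cluster of Apoe, 0.12 ± 0.29 (n = 4 each). Neither passed (limma adjusted p = 0.973 for both). Apoc2 read -0.12, 0.42, -0.14 and 0.31 on replicates 1 to 4. Its sign thus followed the dye orientation, negative with shFmr1 in Cy5 and positive with shFmr1 in Cy3 (limma adjusted p = 0.730 for the dye term).

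Some receptors that take up these proteins had negative ratios. Cubn, the endocytic receptor for Apoa1 and albumin, read -2.37, -0.39, -1.03 and -0.26 (mean -1.01 ± 0.96, n = 4). Its partner Amn read -0.44, -0.32, -0.23 and -0.37 (mean -0.34 ± 0.09, n = 4). Stra6, the membrane receptor of Rbp4, read -0.75, -0.34, -0.53 and 0.03 (mean -0.40 ± 0.33, n = 4). Lrp2, or megalin, which acts with Cubn, read -0.27, 0.03, -0.71 and -0.58 (mean -0.38, n = 4). Cubn and Amn were thus negative on all 4 arrays and Stra6 and Lrp2 on 3, yet all had a limma adjusted p of 0.973. The Cubn values lay farther below 0 with shFmr1 in Cy5 than in Cy3 (limma adjusted p = 0.730 for the dye term). Amn and Lrp2 were named after their values were seen. On the positive side, the sorting receptor Sorl1 averaged 0.20 ± 0.15 and Cyp26b1, which degrades retinoic acid, 0.27 ± 0.31 (n = 4 each). Of the 24 lipoprotein assembly and receptor genes measured, 12 were negative and 12 positive, and at an unadjusted p under 0.05 there were 5 negative and 0 positive genes (2.05% and 1.71% of all genes). These 5 were Cubn, Amn, Lrp2, the receptor chaperone Lrpap1 and the lipase Lpl. Lrpap1 and Lpl were also named after their values were seen. Of the 23 retinoid genes measured, 13 were negative and 10 positive, with 2 negative and 0 positive at that level. The medians of these lists were -0.01 and -0.04, and 0 genes passed in either. A difference between the receptors and the secreted proteins was not tested.

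Of 28 regulators of the 8 genes measured, 16 were negative and 12 positive, with a median of -0.02 and none past the test. At an unadjusted p under 0.05 there were 3 negative and 0 positive regulators (2.05% and 1.71% of all genes). Foxa2, a forkhead factor of endoderm and liver, read -0.85, -0.34, -0.75 and 0.19 (mean -0.44 ± 0.47, n = 4; limma adjusted p = 0.730 for the dye term). The others were Gata6, a zinc-finger factor of primitive endoderm, which read -0.75, 0.04, -0.44 and 0.01 (mean -0.29), and the oxysterol receptor Nr1h3, which read -0.53, 0.06, -0.42 and -0.42 (mean -0.33). Foxa2 and Gata6 were lower on the arrays with shFmr1 in Cy5 than on those in Cy3. Prox1, a homeodomain factor of hepatoblasts, read 0.21, 0.01, 0.0056 and 1.05 (mean 0.32 ± 0.50, n = 4), and this mean rests on replicate 4. With values beyond 2 left out, Prox1 averaged -0.02. Hnf4a, a nuclear receptor that activates many apolipoprotein genes, averaged -0.01 ± 0.11, and Gata4 averaged 0.05 ± 0.15 (n = 4 each). Gata6, Nr1h3, Hnf4a and Gata4 were named after their values were seen.

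Other markers of the same tissue mostly had negative means. Of 29 visceral endoderm markers measured outside the 8 genes, 22 were negative, with a median of -0.20. At an unadjusted p under 0.05 there were 12 negative and 0 positive markers (2.05% and 1.71% of all genes), and 0 passed over all genes. The 7 markers with positive means were Ihh, Lefty1, Hhex, Nostrin, Bmp2, Emb and Pla2g12b, from 0.04 (Ihh) to 0.15 (Pla2g12b). The 12 were Amn, Cubn, Lrp2, Dab2, Foxa2, Cited1, Rhox5, S100g, Cldn6, Krt8, Krt18 and Krt19. Among these 12, S100g, Cubn, Foxa2 and Krt19 had a limma unadjusted dye p under 0.05 (6.49% of all genes). Krt19 was lower with shFmr1 in Cy3, and S100g, Cubn and Foxa2 with shFmr1 in Cy5. The list medians per array were -0.27 and -0.10 with shFmr1 in Cy5, and -0.11 and -0.16 with shFmr1 in Cy3. Without replicate 4 and without the dye term, 20 of the markers were negative and 9 had a limma unadjusted p under 0.05 (3.51% of all genes). The same count was not made without replicate 1. The list was drawn up with earlier results of these data known and is not independent evidence of a direction. It shares Apom, Lrp2, Cubn, Amn, Hnf4a, Foxa2 and Sox17 with the lists above. Leaving out 1 array gave list medians from -0.24 to -0.12, the smallest in size without replicate 1. Of the 23 parietal and primitive endoderm markers, 19 were negative, with a median of -0.20, and at an unadjusted p under 0.05 there were 8 negative and 0 positive markers. This list shares Lrp2, Sox17 and Dab2 with the visceral list. Its medians per array were -0.27 and -0.21 with shFmr1 in Cy5, and 0.03 and -0.04 with shFmr1 in Cy3. Leaving out 1 array gave medians from -0.25 to -0.087, the smallest in size without replicate 1. Hepatocyte enzymes that are not secreted had 12 of 17 positive and a median of 0.08, ES cell markers a median of -0.0077 over 15 genes, and embryonic fibroblast markers a median of 0.15 over 18 genes. The fibroblast medians were 0.27, 0.28, 0.02 and -0.21 on replicates 1 to 4. Leaving out 1 array gave medians from 0.02 (without replicate 1) to 0.27 (without replicate 3) for fibroblast markers, and from -0.01 (without replicate 2) to 0.17 (without replicate 4) for hepatocyte enzymes. Definitive endoderm and gut markers had 10 of 14 negative and a median of -0.04, and erythroid markers 7 of 9 negative and a median of -0.08. Whether the 8 genes differ from the other visceral endoderm markers was not tested.

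**Figure D4:**
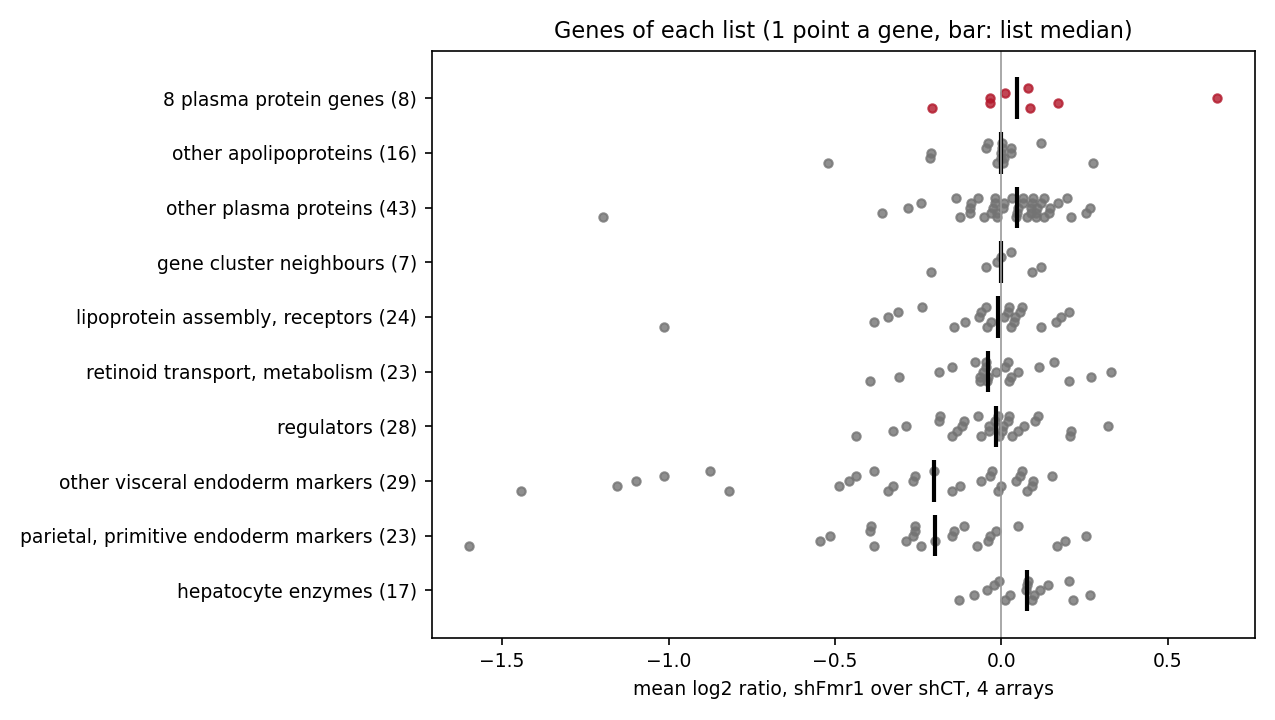
Mean log2 ratio of shFmr1 over shCT over 4 arrays for each measured gene of 10 lists, with a black bar for the list median and the number of genes in brackets. The 8 plasma protein genes have a median of 0.05 and the other visceral endoderm markers one of -0.20, and lists can share genes.

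The genes with profiles nearest to the members with the largest ratios were found by Euclidean distance over the 4 arrays among all other genes. Nearest to Apoa2 were Casq2 (distance 0.240), Pudp (0.276) and Cfap74 (0.301), which read 3.15, 2.90 and 2.90 on replicate 4. Nearest to Apob were Xk (0.0593), Olfr1381 (0.109) and Afdn (0.110), which read 0.73, 0.61 and 0.62 there. With 4 points a profile, such likeness describes mainly the high value on replicate 4.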

How the data were processed

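The data were 4 Agilent 2-colour arrays on 1 slide, per the array titles in the labels, which leaves no test of slide as a batch. The authors deposited 1 log ratio per feature and array, read here as log2. Its normalization, software, log base and direction were not given in the sources used here. A 2016 platform annotation supplied the gene names: 33649 of 45214 had 1 symbol, 56 had several and 11509 had none, and only the first kind was used. Features were averaged per gene and array. Under R 4.3.3, limma 3.58.1 (lmFit, eBayes) fitted a hairpin and a dye coefficient per gene, and p-values were adjusted by Benjamini-Hochberg over 19083 genes with a threshold of 0.05. The fit was tested on simulated data with known changes. Promoters are from RefSeq (GRCm38.p6); Ttr had no entry.

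The 8 genes and all lists (263 of 291 symbols measured) were chosen with earlier results of these data known. Genes named by rule are the 8, Fmr1 and the smallest p in each direction of 6 lists of other genes. So are the 3 profiles nearest to each of the 2 members with the largest root mean square ratio. Other genes were named after their values were seen, or because lists share them. The alternatives omitted the dye term or used other centring, scaling and feature summaries, other variance models and thresholds, other log bases, or left out each array.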

Additional observations from a re-analysis of the deposited data

Results flagged for a closer look

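On 6 of 43 results, genes and list medians, Dixon's criterion set 1 array apart from the other 3. Chance flags about 1 in 20, which would be 2.15 of them. Apoa2 read 3.13 on replicate 4 and between -0.23 and -0.11 on the others. Casq2 (3.15), Pudp (2.90) and Cfap74 (2.90) were apart on the same array, but they had been picked for their likeness to Apoa2. The list median of other apolipoproteins was 0.12 on replicate 3 and between -0.09 and -0.07 on the others, and that of other plasma proteins was 0.0805 on replicate 3 and between 0.02 and 0.03 on the others.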

How the results depend on the processing

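Of 25 alternative settings, 8 left out 1 array, and leaving out values beyond 2 was chosen after seeing the data. In the settings that kept all arrays, no gene passed the threshold where a test was run. Afp (-0.032) and Apob (-0.0895) reversed with 1 feature per gene, where 5 of the 8 means were negative with a median of -0.0229. That median was 0.155 read as log10. The arrays of 1 dye orientation alone were averaged without a test. With shFmr1 in Cy5, Apoa2 (-0.155), Apob (-0.012), Alb (0.030) and Apoe (0.057) had the sign opposite to their mean over 4 arrays. With shFmr1 in Cy3, Afp (-0.048) did. With values beyond 2 left out, Apoa2 (-0.19, replicate 4 dropped), Casq2 (-0.14), Pudp (-0.27), Cfap74 (-0.13) and Prox1 (-0.0227) reversed, and so did Prox1 over single features and with 1 feature per gene (-0.000935 in both). Leaving out 1 array gave 0 to 87 genes past the threshold (25, 87 and 10 without replicates 1, 2 and 3, dye term kept), 2 to 4 negative members, 0 to 2 members with an unadjusted p under 0.05, and ranges of -0.0267 to 0.0586 for Afp, -0.149 to 0.0842 for Alb, 0.0144 to 0.147 for Ttr, -0.341 to -0.0993 for Rbp4, 0.0106 to 0.159 for Apoa1, -0.192 to 1.49 for Apoa2, 0.000226 to 0.333 for Apob and -0.0891 to 0.0343 for Apoe. Without replicate 2, dye term kept, Apoa2, Fmr1, Hamp2, Casq2, Pudp and Cfap74 passed, and Fmr1 also without replicate 1. Without a reversal, ranges were -1.35 to -0.562 for Cubn, -0.777 to -0.267 for Clu, -0.353 to -0.0708 for Apoa4, 0.0170 to 0.204 for Apoc2, -0.644 to -0.298 for Foxa2, -1.59 to -0.788 for Hamp2 and 0.0616 to 0.581 for Prox1. List medians took both signs for hepatocyte enzymes (-0.0126 to 0.171), ES cell markers (-0.0458 to 0.125), cluster neighbours (-0.108 to 0.0833), other apolipoproteins (-0.0684 to 0.0355), lipoprotein genes (-0.0634 to 0.0218), retinoid genes (-0.0695 to 0.0120) and macrophage markers (-0.0263 to 0.0136). Reversals were also found for Apod (-0.132 to 0.565), Casq2 (-0.138 to 1.58), Cfap74 (-0.137 to 1.38), Pudp (-0.270 to 1.34), Xk (-8.8e-07 to 0.364), Olfr1381 (-0.0082 to 0.297) and Afdn (-0.0158 to 0.297). For the reversals other than by dropping values or arrays, the cause was not tested. No feature listed a member among several symbols, so that alternative gave no value. Each value already pairs 1 shFmr1 with 1 shCT RNA within an array, so no further replicate block could be fitted.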
